A study of Mus musculus with 4 samples.

Results

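A set of 10 imprinted genes was followed through the neonatal small intestinal epithelium: the noncoding RNAs H19, Meg3, Rian, Kcnq1ot1 and Airn and the protein-coding genes Igf2, Dlk1, Cdkn1c, Grb10 and Peg3. All 10 symbols were found among the 32227 features that the 4 single-cell libraries share. They were chosen as named imprinted genes with earlier values of these libraries in view, and what was seen included their difference between ileum and jejunum. That difference is therefore given for the members as a description, with no p-value. The alleles were not read apart, so whether a gene was imprinted in these cells was not measured.

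The libraries came from wild-type mice at postnatal day 6, before weaning. The medial jejunum and the ileum of each of 2 mice were cut into pieces, and the epithelium was shaken loose in EDTA, dissociated with dispase and captured by PIPseq, a method that isolates cells in particle-templated emulsions and tags each RNA molecule at its 3′ end with a unique molecular identifier (UMI). Ileum 1 and Jejunum 1 came from the mouse of batch 1, which is labelled male, and Ileum 2 and Jejunum 2 from the mouse of batch 2, labelled female. No mutant, treatment or second age enters these libraries, and n is 2 mice per region throughout.

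Imprinted genes are transcribed mainly from the allele of 1 parent and lie in domains that share a control region. In the Igf2 and H19 domain on chromosome 7, the paternal allele makes the growth factor Igf2 and the maternal allele makes the H19 RNA. In the neighbouring Kcnq1 domain the paternal RNA Kcnq1ot1 runs antisense to the potassium channel gene Kcnq1, and Cdkn1c encodes a maternally expressed inhibitor of cyclin-dependent kinases. On chromosome 12 the paternal allele makes Dlk1, a membrane protein related to Notch ligands, and the maternal allele makes the RNAs Meg3, Rian and Mirg. On chromosome 17 Airn runs antisense to Igf2r, which encodes the receptor that clears IGF2. Peg3 on chromosome 7 encodes a paternally expressed zinc finger protein, and Grb10 on chromosome 11 encodes an adaptor that dampens insulin and IGF receptor signalling. Many of these genes are high in fetal organs and fall after birth.

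The 4 libraries held 36202 called barcodes and 378810858 UMIs, and 30522 cells passed the limits of 1000 to 6000 genes and under 20% mitochondrial UMIs. The median kept cell had 12048 and 10916 UMIs in Ileum 1 and 2 and 4690 and 5884 UMIs in Jejunum 1 and 2, so levels are given in CPM, the usual scaling of the UMIs of a gene to the total UMIs of its cell class and library, and shares of cells were taken after every cell had been reduced to 2000 UMIs. Between 0 and 1 barcodes were shared by any pair of libraries. In all 4 libraries the sex-linked RNAs went against the sex label: Xist stood at 537 and 467 CPM in the 2 libraries labelled male and at 0.712 and 0.984 CPM in those labelled female, and the Y-linked Eif2s3y at 0.0228 and 0.109 CPM against 89.1 and 66.4 CPM. Mouse, batch and sex label cannot be told apart here, so the libraries are named by region and mouse number.

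Cells were grouped with the imprinted genes left out of the genes that formed the clusters, and clusters were called by marker genes. Enterocyte-like cells, which carried Alpi, Apoa1, Apoa4, Fabp1 and other absorptive markers, numbered 5781, 6418, 7229 and 4502 in Ileum 1, Ileum 2, Jejunum 1 and Jejunum 2. Stem/progenitor-like cells, with Olfm4, Lgr5, Mki67 and Top2a, numbered 412, 399, 433 and 394. Enteroendocrine-like cells, with Chga, Chgb and Neurod1, numbered 72, 71, 67 and 46. A further 1025, 1600, 1240 and 762 cells stayed unnamed. Because a UMI count depends on how a gene's 3′ end was captured, each gene is compared with itself between samples, and the genes are not ranked against each other by level.

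In enterocyte-like cells the level of Meg3 was 187 CPM in Ileum 1, 41.4 CPM in Ileum 2, 1.02 CPM in Jejunum 1 and 1.24 CPM in Jejunum 2. Both ileal libraries lay above both jejunal libraries, with 17721 Meg3 UMIs in the ileal cells and 101 in the jejunal cells. Within the same mouse the ileal level was 183-fold the jejunal level in mouse 1 and 33.4-fold in mouse 2. The fitted log2 difference was 6.52 ± 0.82 (SE, 2 libraries per region). The 2 ileal libraries themselves differed 4.53-fold, and among 10079 genes of at least 5 CPM only 0.347% differed more between those libraries, against a median size of 0.17 on the log2 scale. The direction of the regional difference was thus shared by the mice while its size was not.

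Rian, the next RNA of the domain and a host of small nucleolar RNAs, followed the same order. It stood at 33.8, 6.60, 0.492 and 0.152 CPM in Ileum 1, Ileum 2, Jejunum 1 and Jejunum 2, the last of these resting on 6 UMIs. The ratio of ileum to jejunum was 68.7 in mouse 1 and 43.6 in mouse 2, and the fitted log2 difference was 5.77 ± 0.97. Mirg, the third RNA of the domain, was not a member and stood at 5.81, 1.44, 0.0984 and 0.278 CPM. Dlk1, the protein-coding gene at the other end of the domain, had between 2 and 9 UMIs per library in enterocyte-like cells, or at most 0.118 CPM. Rtl1, a paternally expressed gene that overlaps Meg3 and Rian in the RefSeq annotation, reached at most 0.328 CPM. The strand setting of the counting is not given in the sources used here, so reads of Meg3 and Rian and of the overlapping Rtl1 cannot be told apart.

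**Figure D1:**
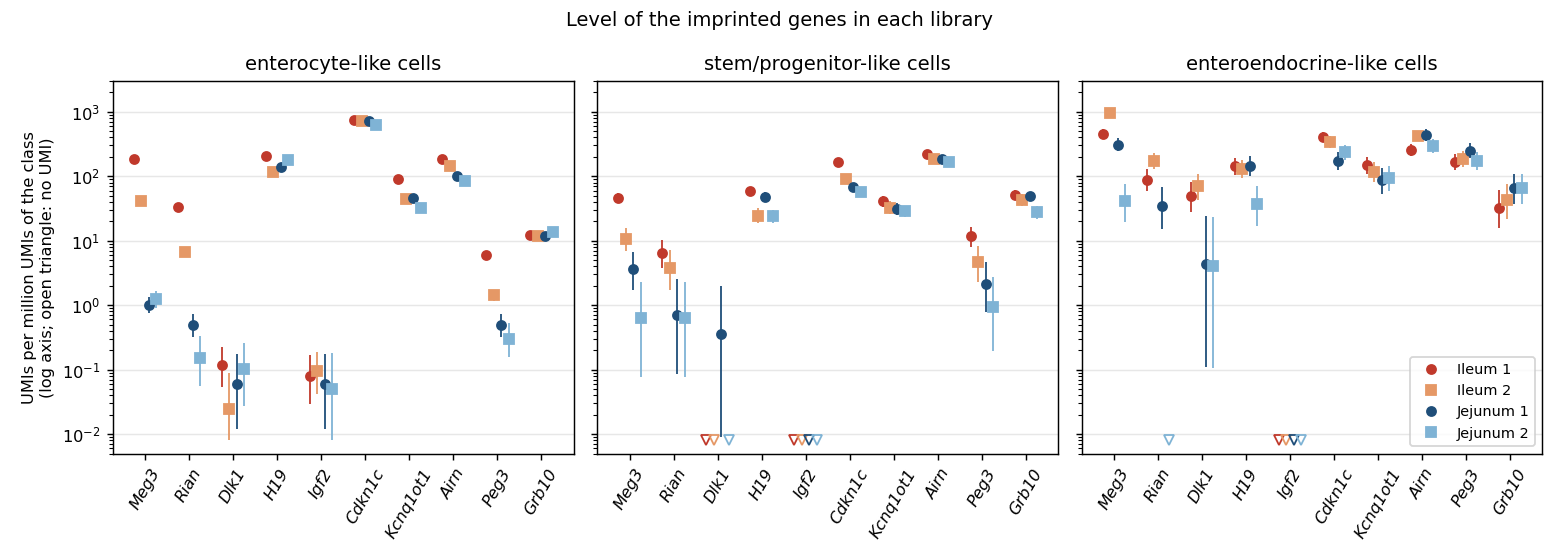
Level of each of the 10 genes in enterocyte-like, stem/progenitor-like and enteroendocrine-like cells, in CPM on a log axis, 1 point per library; the bars are exact 95% Poisson intervals, which cover counting error only, and open triangles mark a gene with no UMI. In enterocyte-like cells the Meg3 points fall from 187 (Ileum 1) and 41.4 (Ileum 2) to about 1 in the jejunal libraries, while Cdkn1c lies between 634 and 759 in all 4 libraries.

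At 2000 UMIs per cell, 17.3% (exact 95% interval 16.4 to 18.3) of enterocyte-like cells of Ileum 1 and 4.18% (3.70 to 4.71) of Ileum 2 held a Meg3 UMI. In Jejunum 1 and Jejunum 2 the shares were 0.329% (0.206 to 0.497) and 0.298% (0.159 to 0.510). The regional order of the level was therefore also the order of the share of cells at equal depth. None of 47 immune-like cells of the 4 libraries, a cell type used as a measure of free RNA, held a Meg3 UMI at that depth, which allows a share of up to 6.38%; their median depth before thinning was 3288 to 8148 UMIs, against 5267 to 15023 in enterocyte-like cells. The shares of Ileum 2, Jejunum 1 and Jejunum 2 lie under that limit. Within a library, 7, 10, 18 and 12 immune-like cells allow shares of up to 42.9%, 30.0%, 16.7% and 25.0%, above the Meg3 share of the same library in each case, so this measure does not set any of the 4 shares apart from free RNA. The stem/progenitor-like cells of the same libraries had shares of 5.13%, 1.35%, 0.491% and 0.270% at that depth.

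Meg3 and Rian were found in the same cells. Among enterocyte-like cells of Ileum 1 with a Meg3 UMI at 2000 UMIs per cell, 21.3% also held a Rian UMI, against 1.58% of the cells without Meg3. The cells with both were 4.26 times as many as the product of the 2 shares would give. In Ileum 2 the corresponding shares were 19.5% and 0.418%. Meg3 and Mirg likewise shared 4.12 times as many cells as that product in Ileum 1. Meg3 and Peg3, which lie on different chromosomes, shared 1.5 times as many in that library. Other pairs from different domains lay nearer the product: Meg3 and H19 gave 1.06 and 0.782 in Ileum 1 and Ileum 2, and Meg3 and Airn gave 1.13 and 1.22. Overlapping pairs on opposite strands also stayed near it, with the Airn and Igf2r pair between 0.912 and 1.11 over the 4 libraries. These ratios are descriptions over cells of a library, which are not replicates.

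**Figure D2:**
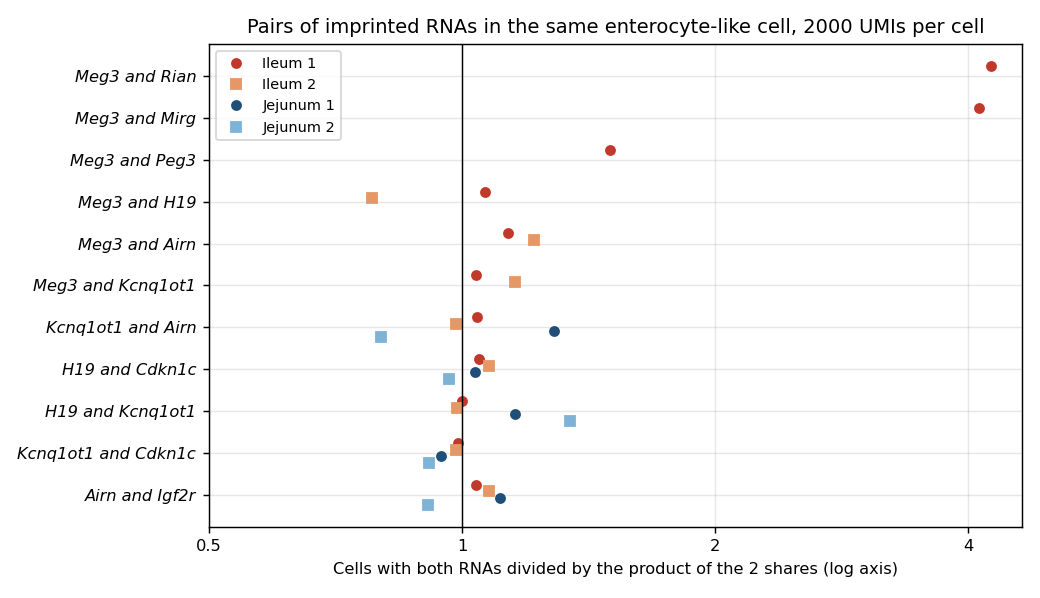
Number of enterocyte-like cells with a UMI of both genes of a pair, divided by the number that the product of their shares would give, at 2000 UMIs per cell on a log axis; each point is a library, drawn where the product comes to at least 10 cells. Meg3 with Rian and with Mirg lies at 4.26 and 4.12 in Ileum 1, while the other pairs lie between 0.782 and 1.5.

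Marker RNA of mesenchymal and erythroid cells was low in these sums, and that of neural, glial and endothelial cells was higher. The 10 mesenchymal markers summed to 4.40, 3.43, 4.47 and 3.54 CPM in the enterocyte-like cells of Ileum 1, Ileum 2, Jejunum 1 and Jejunum 2, and 9 or 10 of the 10 lay under 1 CPM in each library. The 6 neural and glial markers summed to 8.38, 13.8, 8.38 and 23.6 CPM, most of it S100b in Ileum 2 and Jejunum 2, and the 5 endothelial markers to 34.9 to 44.2 CPM, most of it Cdh5. Without the cells that held 2 or more mesenchymal UMIs, Meg3 stood at 188, 41.5, 1.03 and 1.24 CPM. The erythroid markers summed to 0.327, 0.351, 0.157 and 0.303 CPM and were the one list with both ileal libraries above both jejunal libraries. Without the cells that held an erythroid UMI, Meg3 stood at 187, 41.4, 1.00 and 1.24 CPM.

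Meg3 stood at 46.7, 10.5, 3.58 and 0.635 CPM in stem/progenitor-like cells, the jejunal values resting on 10 and 2 UMIs. Rian stood at 6.42, 3.80, 0.716 and 0.635 CPM, with 2 UMIs in each jejunal library. Both ileal libraries again lay above both jejunal libraries for either RNA. The fitted regional log2 differences were 3.75 ± 0.71 for Meg3 and 2.81 ± 0.71 for Rian.

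Enteroendocrine-like cells, the hormone-producing cells of the epithelium, held Meg3 at 452 CPM in Ileum 1, 947 CPM in Ileum 2, 310 CPM in Jejunum 1 and 41.2 CPM in Jejunum 2. A Meg3 UMI was found in 34, 38, 14 and 5 of these cells before thinning. The 67 enteroendocrine-like cells of Jejunum 1 carried 47.3% of all Meg3 UMIs of the kept cells of that library, and the 46 of Jejunum 2 carried 14.9%, where enterocyte-like cells carried 73.1%. Rian stood at 88.4, 175 and 35.0 CPM in Ileum 1, Ileum 2 and Jejunum 1 and had no UMI in Jejunum 2, where 3 counts would be 12.4 CPM. In the ileum most Dlk1 UMIs were in these cells (60% and 90.9%), at 49.1 and 71.2 CPM in Ileum 1 and Ileum 2 (15 and 20 UMIs) and with 1 UMI in each jejunal library. With 46 to 72 cells per library these values have wide counting intervals, and no test was run on them.

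Peg3 was low in enterocyte-like cells, at 6.04, 1.42, 0.492 and 0.303 CPM in Ileum 1, Ileum 2, Jejunum 1 and Jejunum 2. Within a mouse the ratio of ileum to jejunum was 12.3 and 4.68, and the fitted log2 difference was 3.07 ± 0.74. It stood at 11.8, 4.64, 2.15 and 0.952 CPM in stem/progenitor-like cells, again with both ileal libraries above both jejunal ones. In enteroendocrine-like cells it stood at 167, 185, 249 and 173 CPM and the regions overlapped. The enteroendocrine-like cells carried 58.8% and 71.2% of the Peg3 UMIs of the kept cells of Jejunum 1 and Jejunum 2, against 6.91% and 24.8% in Ileum 1 and Ileum 2.

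Meg3 and Peg3 have in common a short sequence before their start. Of the 10 members, 8 have an entry in the RefSeq promoter table used here (GRCm38.p6), and the 250 bases before each start were searched for TGACGTCA, the palindromic cyclic AMP response element, which reads the same on either strand. It occurs in 1 listed start of each of 2 members. The Meg3 window is chr12:109540746-109540995 on the plus strand with the element beginning 57 bases before the start, and the Peg3 window is chr7:6730420-6730669 on the minus strand with the element 178 bases before the start. They are shown because these 2 members were the ones that held the element, which is in capitals:
Meg3: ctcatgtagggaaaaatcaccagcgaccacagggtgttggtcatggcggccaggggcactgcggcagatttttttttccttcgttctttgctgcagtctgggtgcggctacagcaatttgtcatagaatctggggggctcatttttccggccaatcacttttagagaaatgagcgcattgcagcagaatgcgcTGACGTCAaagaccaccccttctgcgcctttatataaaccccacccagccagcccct
Peg3: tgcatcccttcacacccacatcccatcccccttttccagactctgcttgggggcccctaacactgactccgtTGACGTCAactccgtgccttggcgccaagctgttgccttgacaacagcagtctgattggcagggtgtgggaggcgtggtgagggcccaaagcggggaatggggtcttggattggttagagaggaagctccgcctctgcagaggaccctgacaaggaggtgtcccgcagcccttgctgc
Of all 32851 windows in the table, 508 (1.55%) hold the element, and of 27025 genes 478 (1.77%) do. A match of letters is not a measured binding site, and the counts themselves were made on another build, GRCm39.

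The regions overlapped for H19 in enterocyte-like cells, at 204, 115, 140 and 181 CPM in Ileum 1, Ileum 2, Jejunum 1 and Jejunum 2. The jejunal values lay between the ileal ones, and the ileum was the higher region in mouse 1 (1.46-fold) and the lower in mouse 2 (0.639-fold). The fitted log2 difference between ileum and jejunum was -0.14 ± 0.28. Its spread between the mice was above the usual: the log2 ratio of mouse 1 to mouse 2 was 0.82 in the ileum, which 2.62% of genes exceeded, and -0.37 in the jejunum, which 17.7% exceeded.

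The H19 RNA was spread unevenly over enterocyte-like cells. At 2000 UMIs per cell it was found in 19.5%, 12.2%, 9.99% and 11.3% of the cells of Ileum 1, Ileum 2, Jejunum 1 and Jejunum 2. The variance of its count was 4.2, 3.3, 4.9 and 6.0 times the mean, and the 1% of cells with the most H19 held 21.1%, 27.9%, 35.7% and 32.7% of its UMIs. For comparison, the variance of Cdkn1c was 1.29 to 1.43 times its mean, and that of Airn 1.16 to 1.25 times. A single cell held up to 97 H19 UMIs before thinning. Of the 47 immune-like cells, 5 held an H19 UMI (10.6%, interval 3.55 to 23.1), so the shares of the enterocyte-like cells were not set apart from that measure of free RNA. Before thinning, the immune-like cells of Ileum 1, Ileum 2, Jejunum 1 and Jejunum 2 held 11, 11, 8 and 35 H19 UMIs. A single cell held 11, 8, 4 and 33 of these, and whether they were free RNA was not tested. Since the shares put Ileum 2 above Jejunum 2 while the levels put it below, no regional order is read from them.

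Part of that unevenness followed the clusters of enterocyte-like cells. Cluster 8, whose leading genes include Sprr2a2 and Enpp3, held the least H19 in each library, at 50.2, 26.4, 12.8 and 14.2 CPM. The highest clusters reached 385 CPM (cluster 6) in Ileum 1, 206 CPM (cluster 6) in Ileum 2, 391 CPM (cluster 4) in Jejunum 1 and 419 CPM (cluster 3) in Jejunum 2. Meg3 did not share this order: over the clusters of Ileum 1 it ran from 62.4 CPM (cluster 17) to 470 CPM (cluster 0), and over those of Ileum 2 from 2.57 CPM (cluster 17) to 109 CPM (cluster 14). Across these 16 and 14 clusters, which share a library and its depth, Spearman's rho was 0.92 and 0.88 for Meg3 with Rian and 0.12 and -0.18 for Meg3 with H19. In the jejunal clusters Meg3 stayed at or below 9.15 CPM. Cdkn1c differed 2.05- to 4.65-fold between its lowest and highest cluster. The regions did not fill the clusters alike, since 501 and 459 of the 968 cells of cluster 14, led by Reg3g and Reg3b, came from Ileum 1 and Ileum 2.

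**Figure D3:**
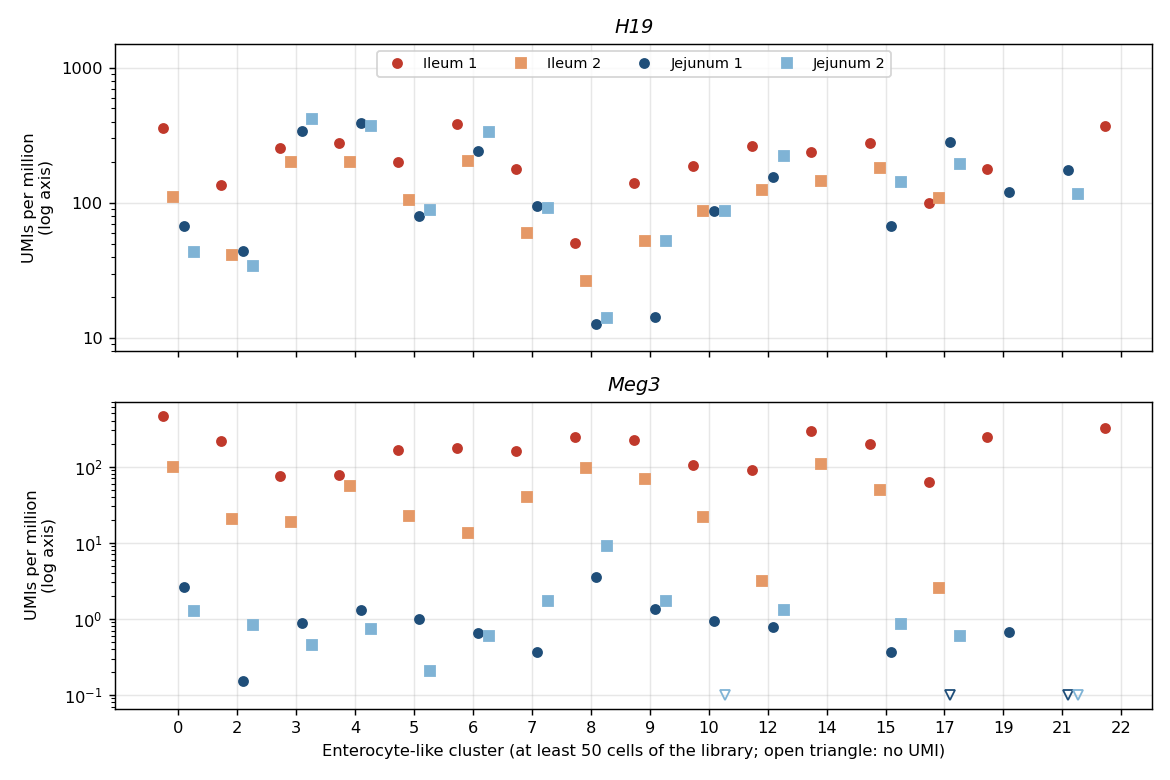
H19 (upper) and Meg3 (lower) in each enterocyte-like cluster with at least 50 cells of a library, in CPM on log axes, 1 point per library, with open triangles where no UMI was found. H19 is lowest in cluster 8 in all 4 libraries (12.8 to 50.2), and the Meg3 points of the ileal libraries lie above those of the jejunal libraries in the clusters that both regions fill.

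Igf2, the growth factor gene that shares its domain with H19, was all but absent. Enterocyte-like cells held 6, 8, 3 and 2 Igf2 UMIs in Ileum 1, Ileum 2, Jejunum 1 and Jejunum 2, or at most 0.0969 CPM. At 2000 UMIs per cell 1 of 23038 enterocyte-like cells held an Igf2 UMI. Stem/progenitor-like, enteroendocrine-like and immune-like cells held none, which for stem/progenitor-like cells allows up to 0.952 to 1.27 CPM per library by 3 counts.

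Cdkn1c was found in most enterocyte-like cells of either region. It stood at 759, 719, 731 and 634 CPM in Ileum 1, Ileum 2, Jejunum 1 and Jejunum 2, with overlapping regions and a fitted log2 difference of 0.00 ± 0.14. At 2000 UMIs per cell 73.6%, 71.6%, 74.3% and 69.6% of the cells held it, against 12.8% (4.83 to 25.7) of the immune-like cells. In stem/progenitor-like cells it stood at 168, 89.4, 67.3 and 57.7 CPM, where both ileal libraries lay above both jejunal ones and the log2 difference was 0.99 ± 0.24. The share of stem/progenitor-like cells with a Cdkn1c UMI was 18.6% in Ileum 1 and 10.0% to 10.6% in the other libraries, all inside the interval of the immune-like share.

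Kcnq1ot1 stood at 91.3, 44.8, 46.4 and 31.8 CPM in enterocyte-like cells, and Ileum 2 lay below Jejunum 1. The ileum was the higher region within each mouse, 1.97-fold in mouse 1 and 1.41-fold in mouse 2, and the fitted log2 difference was 0.67 ± 0.34. Airn stood at 186, 145, 101 and 83.9 CPM, with both ileal libraries above both jejunal ones. Its ratio of ileum to jejunum was 1.84 in mouse 1 and 1.72 in mouse 2, and the log2 difference was 0.72 ± 0.16. Igf2r, which Airn overlaps, had the same order at 402, 347, 220 and 219 CPM, and reads of this pair cannot be told apart without the strand. In stem/progenitor-like cells the regional log2 differences were 0.24 ± 0.20 for Kcnq1ot1 and 0.14 ± 0.15 for Airn.

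At 2000 UMIs per cell Airn was found in 28.1%, 24.5%, 16.3% and 12.6% of enterocyte-like cells and Kcnq1ot1 in 16.2%, 8.62%, 7.75% and 4.98%. The immune-like cells had 42.6% (28.3 to 57.8) and 25.5% (13.9 to 40.4), so these shares mark no epithelial pattern. Both RNAs were also among the 10 leading genes of unnamed cluster 1. In its cells Airn stood at 325, 322, 315 and 277 CPM and Kcnq1ot1 at 179, 91.3, 153 and 111 CPM. The nuclear RNA Malat1 stood at 1474, 1069, 1319 and 1391 CPM in the enterocyte-like cells, which is not the regional order of Airn. In all unnamed cells Malat1 stood at 3191, 2255, 2627 and 2147 CPM and Airn at 347, 313, 221 and 165 CPM. Both lay above their enterocyte-like level in each library, and the cause was not tested.

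Grb10 stood at 12.2, 11.7, 11.9 and 13.8 CPM in enterocyte-like cells, with a log2 difference of -0.23 ± 0.17, and at 51.3, 43.0, 48.7 and 27.6 CPM in stem/progenitor-like cells, with a log2 difference of 0.26 ± 0.24. The regions overlapped in either class. In enteroendocrine-like cells it stood at 32.7, 42.7, 65.6 and 65.9 CPM on 10 to 16 UMIs.

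Of the 10 members, 8 passed the filter on low counts in the regional fits and Igf2 and Dlk1 did not. Rian passed in enterocyte-like cells through its ileal values, since its 6 UMIs in Jejunum 2 were too few for the filter. Peg3, with 25 and 12 UMIs in Jejunum 1 and Jejunum 2, met the limit in both regions. Meg3 and Rian, 2 of the 8, were called higher in the ileum in enterocyte-like cells by edgeR's quasi-likelihood test at an adjusted p of 0.05, where 3.74% of 19438 genes were called in that direction. In stem/progenitor-like cells Meg3, Rian and Peg3 passed the filter through their ileal values. They had 10 and 2, 2 and 2, and 6 and 3 UMIs in Jejunum 1 and Jejunum 2. In that class Meg3 and Cdkn1c were called, where 1.76% of 12399 genes were. The members were selected on this contrast, so nothing is read from these counts. With the mouse as a block 4 members were called in either class, Meg3, Rian and Peg3 in both, Airn in enterocyte-like cells and Cdkn1c in stem/progenitor-like cells. That fit also called more genes in general, 8.21% of those tested as higher in the ileum in enterocyte-like cells and 4.7% in stem/progenitor-like cells. With no count filter 0 of 10 members were called in enterocyte-like cells, beside 1 of 28582 genes. In stem/progenitor-like cells DESeq2 called Cdkn1c alone, beside 269 of 12399 genes. No member was called there without the highest 6% of doublet scores, beside 201 of 12102 genes. Without Ileum 1 no member was called in stem/progenitor-like cells, where 1.41% of genes were called higher in the ileum.

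**Figure D4:**
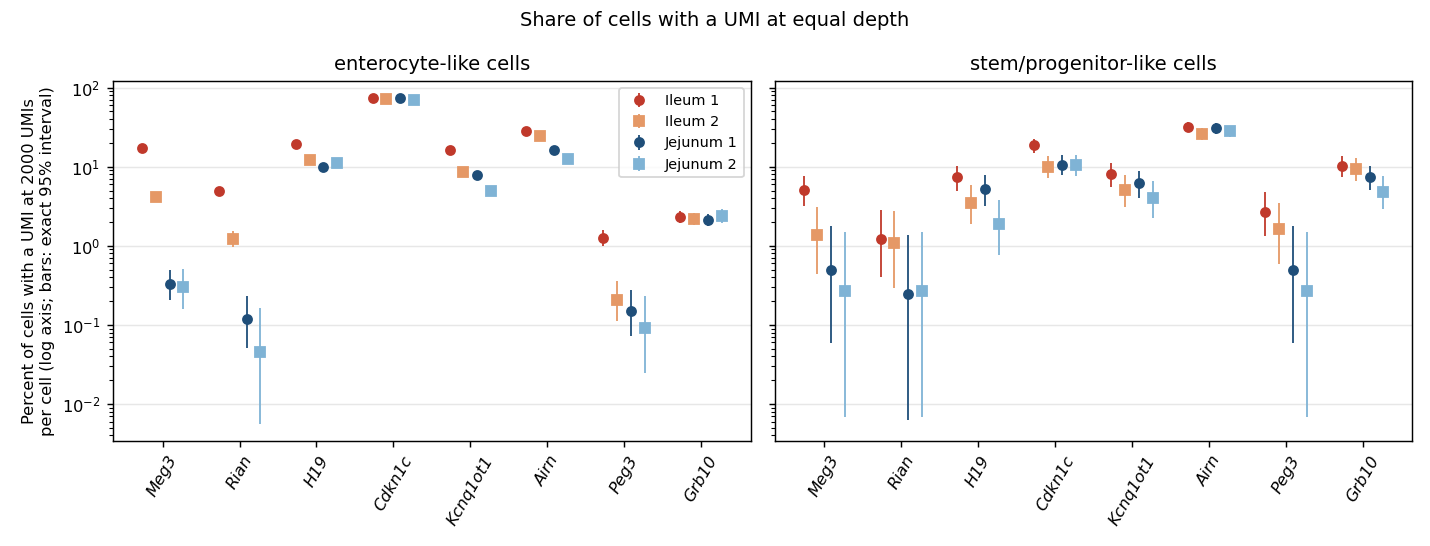
Percent of cells with a UMI of each gene after every cell was reduced to 2000 UMIs, on a log axis, with exact 95% binomial intervals, for enterocyte-like and stem/progenitor-like cells; a point is a library. Airn in enterocyte-like cells lies at 28.1 (Ileum 1), 24.5 (Ileum 2), 16.3 (Jejunum 1) and 12.6 (Jejunum 2), and in stem/progenitor-like cells between 26.2 and 32.3 in all 4 libraries.

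Among 41 other imprinted genes found in the feature lists, 33 were tested between the regions of enterocyte-like cells. Of these 1 was called, beside 3.74% of all genes called higher in the ileum. This was Ppp1r9a, which encodes the actin-binding protein neurabin, at 56.6, 35.1, 15.5 and 9.12 CPM (log2 difference 1.78 ± 0.31, adjusted p = 0.0371, edgeR quasi-likelihood test). With the mouse as a block 7 were called, all higher in the ileum, beside 8.21% of all genes called in that direction. The 7 were Igf2r, Impact, Mirg, Mkrn3, Peg10, Phlda2 and Ppp1r9a. Without Ileum 1 none was called. Mirg, Mkrn3, Peg10 and Phlda2 of the block fit lay under the 5 CPM set for naming, with 16, 8, 9 and 12 jejunal UMIs. They passed the filter through their ileal values. In stem/progenitor-like cells 0 of 17 other imprinted genes were called by edgeR, with 2 at an unadjusted p of 0.05, and 0 by DESeq2. Of all 12399 genes edgeR called 362 and DESeq2 269, so 0 of 17 lies near the share over all genes. Of the 20 genes of the insulin-like growth factor axis, 14 were tested in enterocyte-like cells and 10 in stem/progenitor-like cells and 0 were called in either by edgeR, with 6 and 3 at an unadjusted p of 0.05 and 2 and 0 called by DESeq2. With the mouse as a block edgeR called 2 of the 14 (Igf2bp1 and Igf2bp2, both higher in the ileum) and 4 of the 10 (Hmga1, Igf2bp1, Igf2bp2 and Igfbp4, 2 higher and 2 lower), beside 8.73% of all genes called in either direction in stem/progenitor-like cells.

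The fits also gave the difference between the classes in the change from jejunum to ileum. The value for enterocyte-like less that for stem/progenitor-like cells was 2.78 ± 0.63 for Meg3 on the log2 scale, 0.57 ± 0.15 for Airn and -0.96 ± 0.22 for Cdkn1c. Rian had 2.97 ± 1.08. H19 (-0.27 ± 0.31), Kcnq1ot1 (0.42 ± 0.24), Peg3 (0.66 ± 0.67) and Grb10 (-0.51 ± 0.28) lay within about 2 SE of 0. These are descriptions for the members, of which 3 of 8 were called (Meg3, Airn and Cdkn1c) beside 8.86% of 18696 genes called in either direction. Without Ileum 1 Meg3 alone was called (beside 5.63% of all genes), without Jejunum 1 Cdkn1c, Grb10 and H19 were (7.65%), and with no replicate block none was (0.0588%).

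The 2 cell classes were then compared within each library, with the library as a block. The members and gene lists were chosen with earlier results of these data known, so the p-values between the classes, here and below, are descriptive. Cdkn1c was lower in stem/progenitor-like cells in 4 of 4 libraries, by -3.53 ± 0.23 on the log2 scale (adjusted p = 1.34e-06, edgeR quasi-likelihood test). H19 was lower in 4 of 4 libraries, at 58.1, 24.5, 48.0 and 23.8 CPM in stem/progenitor-like cells (-2.62 ± 0.22, adjusted p = 5.88e-06, edgeR). Kcnq1ot1 was lower in 4 of 4, at 40.6, 32.5, 31.1 and 28.6 CPM (-1.12 ± 0.16, adjusted p = 0.000222, edgeR). Grb10 was higher in 4 of 4 (1.24 ± 0.20, adjusted p = 0.000499, edgeR). These 4 calls held in each of the 15 alternatives run.

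The calls for Meg3, Rian and Peg3 were less firm. Meg3 was lower in stem/progenitor-like cells overall (-2.05 ± 0.46, adjusted p = 0.00365, edgeR), but in 3 of 4 libraries only, since it was higher in Jejunum 1. Rian was lower overall (-1.87 ± 0.53, adjusted p = 0.0121, edgeR) through the ileal libraries, and was higher in both jejunal libraries on 2 UMIs each. Without Ileum 1 the Meg3 difference was -1.42 (adjusted p = 0.0844) and that of Rian -0.65 (adjusted p = 0.366, edgeR). Peg3 was higher in 4 of 4 libraries (0.97 ± 0.33, adjusted p = 0.0279, edgeR). Its adjusted p was 0.112 without Ileum 2, 0.0794 without Jejunum 1 and 0.0515 without Jejunum 2.

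Airn did not pass the test between the classes. It stood at 219, 186, 187 and 166 CPM in stem/progenitor-like cells, above the enterocyte-like level in 4 of 4 libraries, with a difference of 0.10 ± 0.14 (adjusted p = 0.560, edgeR). Its antisense partner Igf2r moved apart from it, from 219 to 402 CPM in enterocyte-like cells to 85.9, 67.9, 71.2 and 69.2 CPM in stem/progenitor-like cells (-2.49 ± 0.14, adjusted p = 7.23e-07, edgeR). Kcnq1, the channel gene that Kcnq1ot1 overlaps, moved opposite to it, from 9.07 to 12.2 CPM to 412, 424, 502 and 447 CPM (4.90 ± 0.12, adjusted p = 3.78e-08, edgeR).

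The class result depended on how the sums were scaled. TMM scaling, which assumes that most genes keep their level, put the median difference of all 16636 genes at 0.02, and scaling by library totals, added after seeing the data, put it at 0.54 on the log2 scale. By totals Airn was higher in stem/progenitor-like cells (0.62 ± 0.14, adjusted p = 0.00416, edgeR), and no member changed direction. Of the 8 members tested, 5 were called lower and 2 higher, beside 33.3% of all genes called lower and 29.8% called higher, and their median difference was -1.5.

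**Figure D5:**
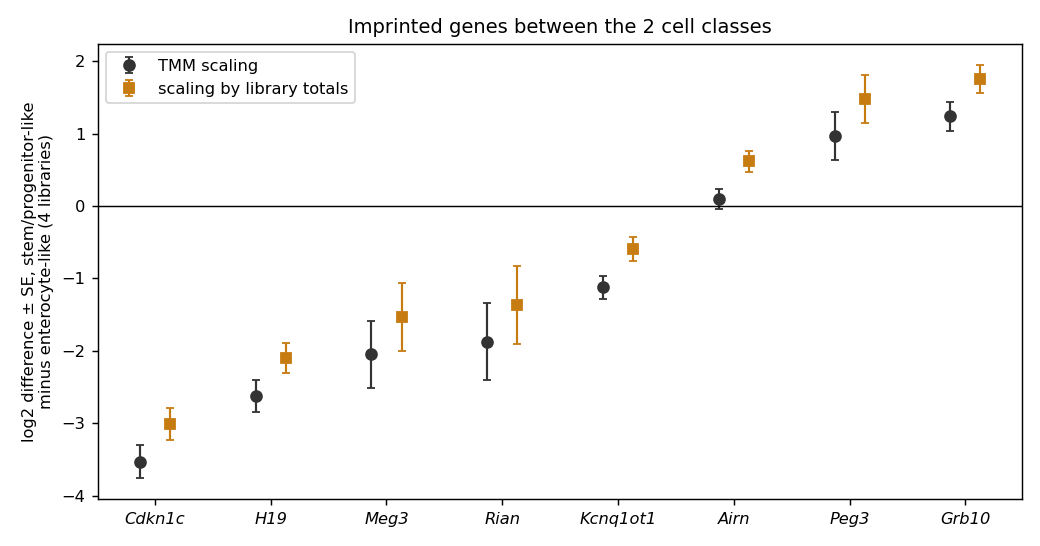
Log2 difference ± SE between stem/progenitor-like and enterocyte-like cells for the 8 members tested, over 4 libraries with the library as a block, by TMM scaling (circles) and by scaling to library totals (squares). Cdkn1c (-3.53) and H19 (-2.62) lie lowest and Grb10 (1.24) highest, and every gene lies higher by the second scaling.

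Of the other imprinted genes, 27 were tested between the classes and 20 were called. In stem/progenitor-like cells 8 were higher and 12 lower, beside 29.8% and 33.3% of all genes. The median over the 27 was -0.49. By library totals the split was 13 higher and 7 lower, beside 46.6% and 21.5% of all genes. Kcnq1 (4.90), Ppp1r9a (1.54 ± 0.31) and Inpp5f (1.40 ± 0.25), a phosphoinositide phosphatase gene, were the named genes that were higher. Dio3, the deiodinase that inactivates thyroid hormone and lies in the Meg3 domain, fell by 2.50 ± 0.33 from a level of 3.71 to 7.20 CPM. Igf2r (-2.49), the transporter gene Slc22a18 of the Kcnq1 domain (-2.27 ± 0.15), the zinc finger gene Plagl1 (-2.24 ± 0.18) and Zrsr1 (-1.56 ± 0.18), which encodes a splicing factor relative, were also lower. Adjusted p values of these 8 genes ran from 3.78e-08 to 0.00199 (edgeR).

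In the insulin-like growth factor axis 10 of 13 genes tested passed between the classes, 7 higher and 3 lower in stem/progenitor-like cells, beside the 29.8% and 33.3% of all genes. By library totals 9 were higher and 1 lower, beside 46.6% and 21.5% of all genes. This list was not left out of the genes that formed the clusters, so its values are a description. The receptor gene Igf1r stood at up to 23.7 CPM in enterocyte-like cells, at 150.4 to 219.9 CPM in stem/progenitor-like cells, and differed by 2.93 ± 0.12 on the log2 scale. The binding protein gene Igfbp4 lay at or under 0.610 CPM in enterocyte-like cells and at 43.5, 59.1, 76.2 and 86.6 CPM in stem/progenitor-like cells. Irs2, an adaptor of insulin and IGF receptors, was lower by -1.15 ± 0.12.

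The genes whose levels ran most like each member over the 12 sums of 3 classes and 4 libraries were named by Pearson's r of log2(CPM + 1) among 11870 genes. They were Klhl13 for Meg3 (r = 0.97), Mfhas1 for H19 (0.95), Stat3 for Cdkn1c (0.99), Chd4 for Grb10 (0.98), Bex2 for Peg3 (0.99), Dleu2 for Kcnq1ot1 (0.96), Mycbp2 for Airn (0.98), B830012L14Rik for Rian (0.95) and Nipal3 for Dlk1 (0.97). Among the members, r was 0.90 for Meg3 with Rian, 0.91 for Peg3 with Airn, 0.84 for H19 with Cdkn1c and -0.69 for Cdkn1c with Grb10. The 12 sums share libraries and depth, and no p-value is given.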

How the data were processed

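Single cells of P6 jejunal and ileal epithelium of 2 wild-type mice were profiled with a 3′ PIPseq kit. The authors aligned reads and called cells with PIPseeker at sensitivity level 3, and deposited a matrix of raw UMI counts per gene and cell for each library. The submitters' processing notes name GRCm39. The annotation and the strand setting are not given in the sources used here. The members and gene lists were chosen with earlier results of these data known.

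From these counts, cells with 1000 to 6000 genes and under 20% mitochondrial UMIs were kept (30522 of 36202, within 1 cell of the number the study states). Cells were integrated by CCA in Seurat 5.3.0 on 2000 variable genes without the imprinted genes, with 30 components and resolution 1, and clusters were named from fixed markers by rules of at least 3 markers. Scrublet marked 1 to 3 cells per library and did not work, so leaving out the highest 6% of scores was an alternative. Summed counts were tested with edgeR 4.0.16 (filterByExpr, TMM, quasi-likelihood) with Benjamini-Hochberg adjustment over all genes. DESeq2 1.42.0 was an alternative. Other genes are named if called with at least 5 CPM in the higher group, at most the 8 largest per comparison. Shares are at 2000 UMIs per cell, leaving out 36, 178, 534 and 144 shallower enterocyte-like cells (Ileum 1, Ileum 2, Jejunum 1, Jejunum 2). Intervals are exact and cover counting error only. Same-numbered libraries are the same mouse, and their deviations from the region means correlated over genes (r = 0.359 for enterocyte-like cells, r = 0.254 for stem/progenitor-like cells).

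On simulated counts the enterocyte-like regional test recovered 64% of log2 changes of 1 and 100% of changes of 2. The stem/progenitor-like regional test recovered 43% and 97%. The class test recovered 91% and 100%. The test of the difference between classes recovered 18% and 89%. The simulated spread between libraries need not equal that of the real ones, so these shares may be too high or too low. In the real sums edgeR's common dispersion, a measure of that spread, was 0.049, 0.0209, 0.0294 and 0.00841 for these tests in turn. Recovery at these values was not tested. The lack of calls among the other imprinted and growth factor genes in stem/progenitor-like cells therefore does not exclude regional log2 changes of 1. Alternatives were a second test, other scaling, no count filter, leaving out each library, stricter cell filters, other clusterings, thinned sums and the replicate block. In the regional fits that block is the mouse. In the fits with both classes, no replicate block means that the library block, which pairs the 2 classes, was left out.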

Additional observations from a re-analysis of the deposited data

Results flagged for a closer look

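Among the other imprinted and growth factor genes, 4 differed between the cell classes in their change from jejunum to ileum by edgeR's quasi-likelihood test of the difference itself. Ppp1r9a changed more in enterocyte-like cells by 1.63 ± 0.20 on the log2 scale (adjusted p = 3.96e-05, edgeR). It stood at 56.6, 35.1, 15.5 and 9.12 CPM there and at 108, 101, 110 and 74.2 CPM in stem/progenitor-like cells of Ileum 1, Ileum 2, Jejunum 1 and Jejunum 2. Igf2r changed more in enterocyte-like cells by 0.57 ± 0.17 (adjusted p = 0.0426, edgeR). Hmga1, which encodes a chromatin protein, did so by 0.71 ± 0.20 (adjusted p = 0.0289, edgeR). Plagl1 differed the other way, by -0.77 ± 0.23 (adjusted p = 0.041, edgeR). Without the library block, which pairs the 2 classes of a library, none of the 4 was called, beside 0.0588% of all genes. Ppp1r9a was called in each other alternative. Igf2r was not called without Ileum 1, Ileum 2, Jejunum 1 or Jejunum 2, with the mitochondrial limit at 10% or without integration. Plagl1 was not called by DESeq2, with the other size factors (RLE), by library totals, without Ileum 1 or without Jejunum 2. Hmga1 was not called by DESeq2, without Ileum 1 or without Jejunum 1.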

How the results depend on the processing

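Between the regions of enterocyte-like cells the main fit called 1269 of all 19438 genes. DESeq2 called 3007, library totals 1882 and the fit with the mouse as a block 2908. With no count filter only 1 of 28582 genes was called. The other cell filters, clusterings and thinned sums gave 1285 to 1558. The regional count of other imprinted genes in enterocyte-like cells was 1. It was 4 by DESeq2, 0 with no count filter, 4 by library totals, 2 with the mitochondrial limit at 10%, and 3 each without cells of 2 or more mesenchymal UMIs, with imprinted genes kept in the clustering, without integration and with thinned sums. It was 4 over all kept cells. With the replicate block, which pairs the libraries of a mouse, it was 7, and leaving out single libraries gave 0 to 4. In stem/progenitor-like cells the count was 0, and 1 with no count filter, 1 with the replicate block, and 0 to 1 without single libraries, each time Usp29. The class count of 20 ran from 17 to 21. The count for the difference between the classes was 3, and 5 with no count filter, 0 with no replicate block and 1 to 5 without single libraries. The causes were not tested. Library totals moved the median regional difference of all genes in enterocyte-like cells from -0.01 to 0.11 on the log2 scale. No member's call turned in direction. Between the classes, Meg3 and Rian also missed the threshold by DESeq2 (adjusted p = 0.115 and 0.103) and with no replicate block (0.204 and 0.196), and Peg3 did so in 9 of 15 alternatives. Having 2 mice per region, with few jejunal UMIs of Meg3, Rian and Peg3, limits the size of every regional difference.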

Other observations

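Usp29, a paternally expressed gene that starts beside Peg3, was high in the jejunum of mouse 2 in each cell class. Enterocyte-like cells held it at 5.26, 3.93, 4.43 and 69.1 CPM in Ileum 1, Ileum 2, Jejunum 1 and Jejunum 2, and stem/progenitor-like cells at 13.5, 7.17, 10.0 and 65.0 CPM. Enteroendocrine-like cells held it at 29.5, 24.9, 43.7 and 128 CPM. The jejunal libraries differed by -3.69 on the log2 scale (Jejunum 1 over Jejunum 2) in enterocyte-like cells, and 0.0816% of 9799 genes differed more. At 2000 UMIs per cell 14.0% of enterocyte-like cells of Jejunum 2 held Usp29, against 0.627%, 0.849% and 1.21% in the other libraries. The ileum of the same mouse did not share the high level, and Peg3 stood at 0.303 CPM in the same enterocyte-like cells. Usp29 is outside the named set and was picked out once its values were known.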
